A study of Mus musculus with 2 samples.

Results

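The 39 genes described here are markers of macrophages, monocytes and neutrophils, read in the RNA of regulatory T cells (Tregs) that were sorted from injured mouse kidney. They were chosen as a list of resident macrophage, monocyte, neutrophil and Fc receptor genes and were found on the arrays through the RefSeq accession of each probe. Of the 39 genes, 38 had a named probe, among 22911 genes named in all, and 33 gave a signal well above background on both arrays. The Tregs were gated as CD45+, CD3e+, CD4+ and FoxP3-hCD2+, the last a reporter that puts human CD2 on Foxp3-expressing cells, at day 28 of cGN, a glomerulonephritis induced by antibodies to the glomerular basement membrane (anti-GBM). Total RNA was hybridised to 2 single-colour arrays, array 2 labelled with anti-GBM lot M and array 1 with lot I, 1 array per lot, and the labels state that severity varied with the lot. Both groups share the induction, the day, the tissue and the sort, no uninjured kidney and no other cell type was used here, and mouse strain, age and the number of mice behind each array are not given in the sources used here.

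Macrophages and monocytes take up immune complexes, dying cells and lipids through scavenger, complement and Fc receptors, and neutrophils add granule proteins and the S100a8 and S100a9 alarmins. In anti-GBM disease, immunoglobulin bound along the glomerular capillaries engages Fc receptors on these cells, and macrophages also populate the kidney interstitium in health. Several of the adaptors, proteases and receptors on the list, Cx3cr1 among the macrophage identity genes, are shared with lymphocytes and other cells.

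Signals are given as levels, the log2 of a signal over the 75th percentile of its array, and differences are array 2 minus array 1 on that log2 scale. The value after ± is the spot error that the scanner reports, which leaves out any spread among mice or lots. With 1 array per lot there is no replicate check and no test, and each difference describes these 2 arrays. The quality summary of the scanner software read Evaluate for array 2 and InRange for array 1. Whether this bears on the differences was not tested. The deposited value table assigns the 2 arrays to the lots in the opposite way from the scanner output, so the arrays are named by number and every sign below would turn if they were named by that table. Spike-in controls, added in equal amounts, had a median difference of 0.06 after scaling, so the sign of a difference smaller than this depends on the scaling. The T cell identity genes, among them Cd3e, Cd4 and Foxp3, were well above background on both arrays in 14 of 14 genes with a probe. Levels of different probes are not comparable and no gene is ranked against another by its level.

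Of the 33 measured genes, 26 (78.8%) were higher in array 2 by any amount, where 53.8% of all genes measured on both arrays were higher. With spike-in scaling the shares were 60.6% of the 33 genes and 37.9% of all genes. The median difference of the 33 genes was 0.20, or 1.15-fold, against 0.01 over all 13743 genes measured on both arrays. By more than 1 spot error, 15 of the 33 were higher, where the background over all genes was 17.1%, and 2 were lower, where it was 11.4%. With spike-in scaling 13 were higher and 2 lower (13.1% and 19.0% of all genes), and with normexp background correction 13 and 1 (11.7% and 5.04%). No measured gene of the list reached 2-fold in either direction, as 1.34% of all genes did in array 2 and 0.0873% in array 1. The 33 differences ran from -0.36 to 0.46. The shares over all genes given here are also the background for the counts of each group and list below. Fewer cells of a type and less RNA per cell cannot be told apart in such RNA, here and in every result below.

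Promoter windows are shown for 6 genes, the complement pair C1qb and C1qc and the alarmin pair S100a8 and S100a9, whose members lie next to each other in the genome and were higher together, the activating Fc receptor gene Fcgr4, and Csf3r, which differed in the other direction by less than 1 spot error. Each window holds the 250 bases before the gene's start in RefSeq (build GRCm38.p6), printed 5′ to 3′ along the gene's own strand. Capitals mark GAGGAA or its reverse complement, the core read by PU.1, the myeloid transcription factor encoded by Spi1, and TTGCNNAA or its reverse complement, a core of the C/EBP family.
C1qb (chr4:136886201-136886450, minus strand): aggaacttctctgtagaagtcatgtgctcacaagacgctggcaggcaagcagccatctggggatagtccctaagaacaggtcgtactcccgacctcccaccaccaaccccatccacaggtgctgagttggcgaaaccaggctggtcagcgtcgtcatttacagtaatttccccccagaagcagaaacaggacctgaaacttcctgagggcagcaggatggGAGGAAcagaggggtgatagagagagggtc
C1qc (chr4:136892915-136893164, minus strand): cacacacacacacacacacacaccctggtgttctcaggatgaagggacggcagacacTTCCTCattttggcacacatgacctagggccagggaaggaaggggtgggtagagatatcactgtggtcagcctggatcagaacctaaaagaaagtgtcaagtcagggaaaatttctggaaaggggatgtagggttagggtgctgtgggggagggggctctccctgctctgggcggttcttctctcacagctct
Fcgr4 (chr1:171018676-171018925, plus strand): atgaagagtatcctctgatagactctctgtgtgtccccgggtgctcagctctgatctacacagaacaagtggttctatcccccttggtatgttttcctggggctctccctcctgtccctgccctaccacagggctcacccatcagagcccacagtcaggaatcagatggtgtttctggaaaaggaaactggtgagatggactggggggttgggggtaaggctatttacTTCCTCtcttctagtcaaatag
S100a8 (chr3:90668821-90669070, plus strand): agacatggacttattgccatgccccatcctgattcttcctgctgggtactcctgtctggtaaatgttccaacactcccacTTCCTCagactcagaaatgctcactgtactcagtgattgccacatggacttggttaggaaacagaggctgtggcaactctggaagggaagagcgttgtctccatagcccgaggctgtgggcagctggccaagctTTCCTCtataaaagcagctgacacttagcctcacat
S100a9 (chr3:90695722-90695971, minus strand): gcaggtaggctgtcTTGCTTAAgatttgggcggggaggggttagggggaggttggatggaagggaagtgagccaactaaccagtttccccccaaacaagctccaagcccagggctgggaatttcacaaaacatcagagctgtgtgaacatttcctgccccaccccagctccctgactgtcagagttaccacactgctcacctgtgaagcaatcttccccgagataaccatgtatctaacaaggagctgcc
Csf3r (chr4:126024409-126024658, plus strand): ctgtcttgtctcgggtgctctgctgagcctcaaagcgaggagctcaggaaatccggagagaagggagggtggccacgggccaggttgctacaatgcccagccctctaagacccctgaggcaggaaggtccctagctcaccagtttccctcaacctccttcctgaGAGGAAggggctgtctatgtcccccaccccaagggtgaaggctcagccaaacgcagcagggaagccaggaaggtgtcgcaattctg

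The window of S100a8 held GAGGAA 2 times, those of C1qb, C1qc, Fcgr4 and Csf3r held it 1 time, and that of S100a9 held the TTGCNNAA core instead. Over the list, 28 of 39 genes had a window in the RefSeq table, with 33 windows in all because some genes have several starts. On either strand, GAGGAA stood in 20 of these 33 windows (60.6%), against 23.3% of all 32851 windows of the same length. The longer form GAGGAAGT, whose matches are also matches of GAGGAA, stood in 3 of the 33 windows (9.09%), those of C1qc, Fcgr4 and S100a8, against 2.44% of all windows. TTGCNNAA stood in 5 of the 33 (15.2%), against 9.56% of all windows. In all, 9 motifs were searched on both strands, and the ones marked above and the 6 windows shown were chosen after the counts and the genes' values had been seen. Of the other 6, GAGGAAG stood in 11 of the 33 windows (33.3%, against 10.6% of all windows) and AGAGGAAGT in 1 (3.03%, against 0.798%), both overlapping GAGGAA. The TATA box TATAAA stood in 3 (9.09%, against 12.4%) and the AP-1 core TGACTCA in 1 (3.03%, against 4.46%). The E-box CACGTG stood in 0 of the 33, against 6.02% of all windows, and TTGCGCAA, a form of TTGCNNAA, also in 0, against 0.164%. These are counts of letters and not of bound sites. The core was present both in windows of genes higher in array 2, such as C1qc, and in that of Csf3r, which was lower by less than 1 spot error.

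The macrophage identity and scavenger receptor genes split into a measured and an unmeasured part. Of 11 genes, 6 were well above background on both arrays, and all 6 were higher in array 2, their median being 0.19, but only 4 of them under spike-in scaling, when Mrc1 and Cx3cr1 turned. Mrc1 also turned under scaling by the median of genes and with no scaling. The scavenger receptor genes that mark particular resident macrophages were at the other end. Cd163, the haemoglobin scavenger receptor, Msr1 and Marco, which are class A scavenger receptors, and Vsig4, a complement receptor, were on neither array well above background. Mertk, a receptor for the uptake of dying cells, was well above background on array 2 with a level of -4.00 and was not so on array 1, where its probe read -4.92. The lower bound on its difference, which leaves out the spot error, was 1.53-fold higher in array 2. It rests on 1 probe near the detection floors of -4.58 on array 2 and -4.62 on array 1. The readings of that probe differed by 0.92 ± 0.53.

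Adgre1, which encodes the macrophage surface protein F4/80, had levels of 1.503 (array 2) and 1.05 (array 1). Its difference of 0.46 ± 0.20 was the largest of the 33 genes, and 7.25% of all measured genes had a difference at least as high. It rests on 1 of 2 probes, since the other was on neither array well above background, and averaging both would give 0.999.
Csf1r, the receptor for the macrophage growth factors CSF1 and IL-34, had levels of 1.502 (array 2) and 1.23 (array 1). Its difference was 0.27 ± 0.15, and both of its probes were higher in array 2, by 0.34 and 0.21. Ms4a7, a tetraspan membrane protein of macrophages, behaved alike, with levels of 0.85 on array 2 and 0.59 on array 1 and probe differences of 0.34 and 0.19.
These 3 genes were the ones of this group whose difference exceeded 1 spot error. Cd68, a lysosomal glycoprotein, reached 0.22 on array 2 and 0.09 on array 1, a difference of 0.12 ± 0.15. Mrc1, the mannose receptor CD206, was at -0.61 on array 2 and -0.62 on array 1. Cx3cr1, the fractalkine receptor of monocytes and kidney mononuclear phagocytes that some T cells also carry, was at 0.55 on array 2 and 0.51 on array 1. The last 2 genes differed by less than the offset of the spike-ins.

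**Figure D1:**
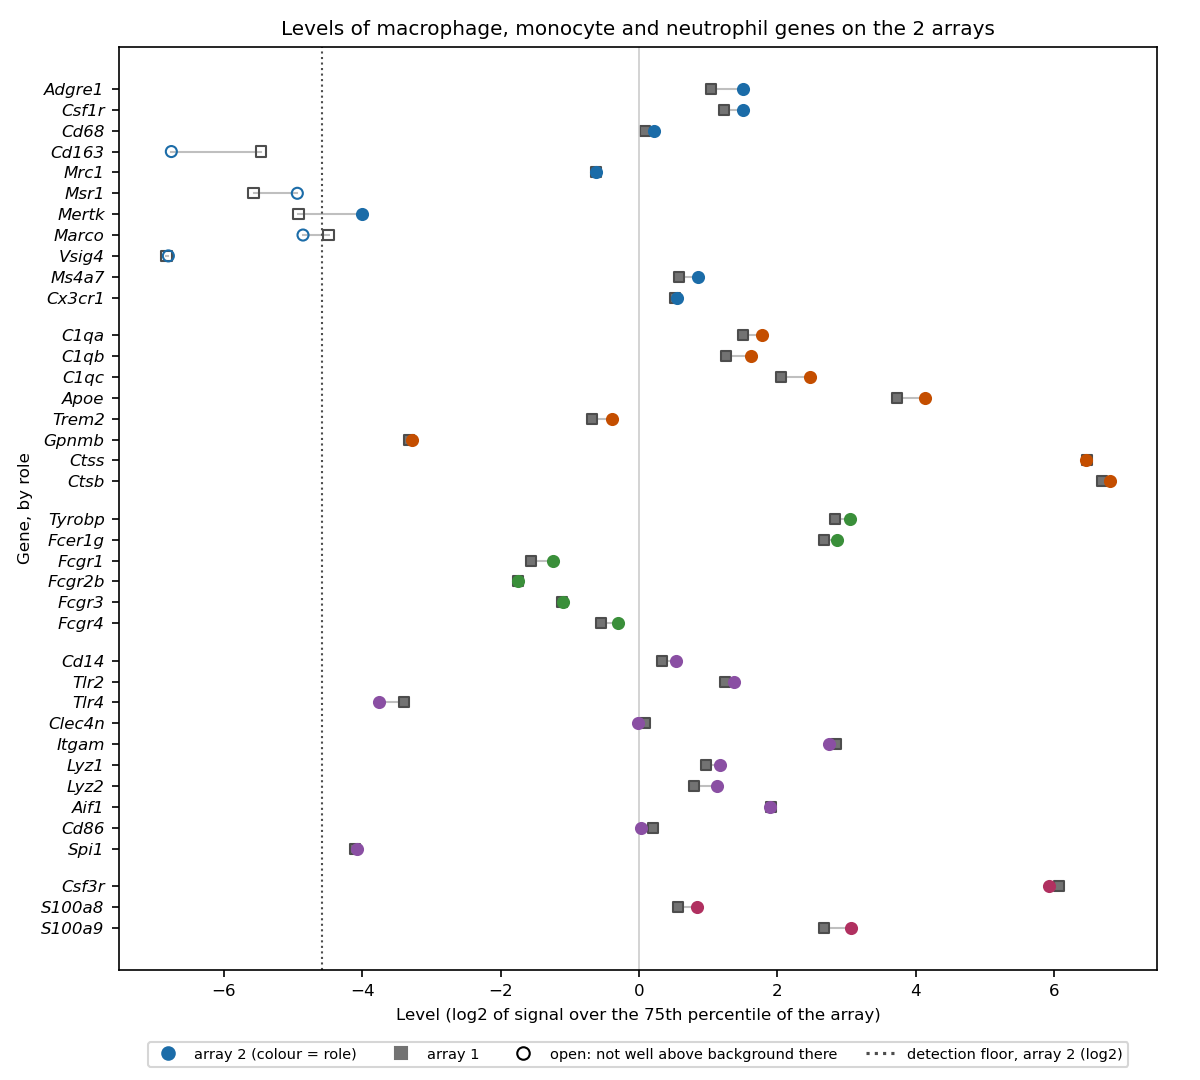
Level of each gene with a named probe on array 2 (coloured circles) and array 1 (grey squares), as log2 of signal over the 75th percentile of the array, in 5 role groups. Open symbols are signals not well above background, with the brightest probe shown, and the dotted line is the detection floor of array 2 at -4.58; Cd163, Msr1, Marco and Vsig4 are open on both arrays and Mertk on array 1.

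Complement C1q, lipid handling and lysosomal genes had the highest median of the groups with more than 3 measured genes. All 8 were measured on both arrays, 7 were higher in array 2 (6 with spike-in scaling or normexp background correction, when Gpnmb turned) and 5 by more than 1 spot error (4 with normexp, without Trem2), with a median of 0.29. The 3 chains of C1q, the recognition molecule of the classical complement pathway, are made largely by macrophages and are encoded by neighbouring genes. C1qa had levels of 1.79 on array 2 and 1.501 on array 1, C1qb of 1.62 on array 2 and 1.26 on array 1, and C1qc of 2.47 on array 2 and 2.05 on array 1. All 3 chains were thus brighter on array 2, by 0.28 ± 0.20, 0.36 ± 0.20 and 0.42 ± 0.20, with 1 probe each.

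Apoe, the lipid carrier apolipoprotein E, had the largest difference in units of its error. Its level was 4.14 on array 2 and 3.73 on array 1, and its 2 probes differed by 0.40 and 0.43, for a mean of 0.41 ± 0.14. Trem2, a lipid-sensing receptor that signals through the adaptor encoded by Tyrobp, was at -0.39 on array 2 and -0.68 on array 1, a difference of 0.29 ± 0.21. The lysosomal protease genes, which many cells express, were close. Ctsb, cathepsin B, reached 6.81 on array 2 and 6.69 on array 1, and Ctss, cathepsin S, 6.46 on array 2 and 6.47 on array 1. Gpnmb, a glycoprotein of lipid-laden macrophages, was dim, at -3.28 on array 2 and -3.32 on array 1, a difference of 0.05 ± 0.27.

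The group of Fc receptor and signalling adaptor genes included the high-affinity receptor gene Fcgr1 at the upper end and Fcgr2b and Fcgr3 near 0. All 6 genes of the group were measured, all 6 were higher in array 2, their median being 0.20, and 3, Fcgr1, Fcgr4 and Tyrobp, by more than 1 spot error. With spike-in scaling 1 of them, Fcgr1, stayed above its error, at 0.26, and with normexp 1, Tyrobp, at 0.23, when Fcgr1 and Fcgr4 had 0.16 and 0.15. Under scaling by the median of genes, by spike-ins, by quantiles or with no scaling, 4 of 6 were higher, since Fcgr2b and Fcgr3 turned, and with normexp 5, since Fcgr3 turned. Fcgr1, the high-affinity receptor for immunoglobulin G, was at -1.24 on array 2 and -1.56 on array 1, a difference of 0.32 ± 0.21. Fcgr4, an activating receptor of mouse macrophages and neutrophils, was at -0.31 on array 2 and -0.54 on array 1, a difference of 0.23 ± 0.21. The signalling adaptor genes of this group were higher by similar amounts. Tyrobp, the adaptor DAP12, reached 3.05 on array 2 and 2.84 on array 1 (difference 0.21 ± 0.20). Fcer1g, the common gamma chain that Fcgr1, Fcgr3 and Fcgr4 use, had 2.87 on array 2 and 2.67 on array 1 (0.20 ± 0.20). Natural killer cells also express both adaptors. The list of natural killer cell genes had a median of 0.02 over 9 measured genes. Of these, 5 were higher (55.6%, near the 53.8% of all genes), or 4 with spike-in scaling (37.9% of all genes). Of the 10 genes of that list, only Ncr1 was on neither array well above background. In that list Klra8 and Eomes were at least 2-fold higher in array 2, with differences of 1.92 ± 0.27 from 1 of 3 probes and 1.19 ± 0.26 from 1 of 2, and were named after their values were seen. The part of natural killer cell RNA in the differences of the adaptors was not tested.

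Fcgr2b, the inhibitory receptor, and Fcgr3, a low-affinity activating receptor, differed by 0.01 ± 0.16 and 0.00 ± 0.21. Fcgr2b was at -1.75 on both arrays, and its 2 probes differed in sign, by 0.03 and -0.02. It was the 1 gene among 8 with several measured probes whose probes did not share a sign. Fcgr3 was at -1.10 on array 2 and -1.11 on array 1. B cells also express Fcgr2b, and the B cell list had a median of -0.31 over 5 measured genes. That median turned to 0.00 with normexp and to 0.03, over 2 genes, with a stricter filter on dim probes.

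**Figure D2:**
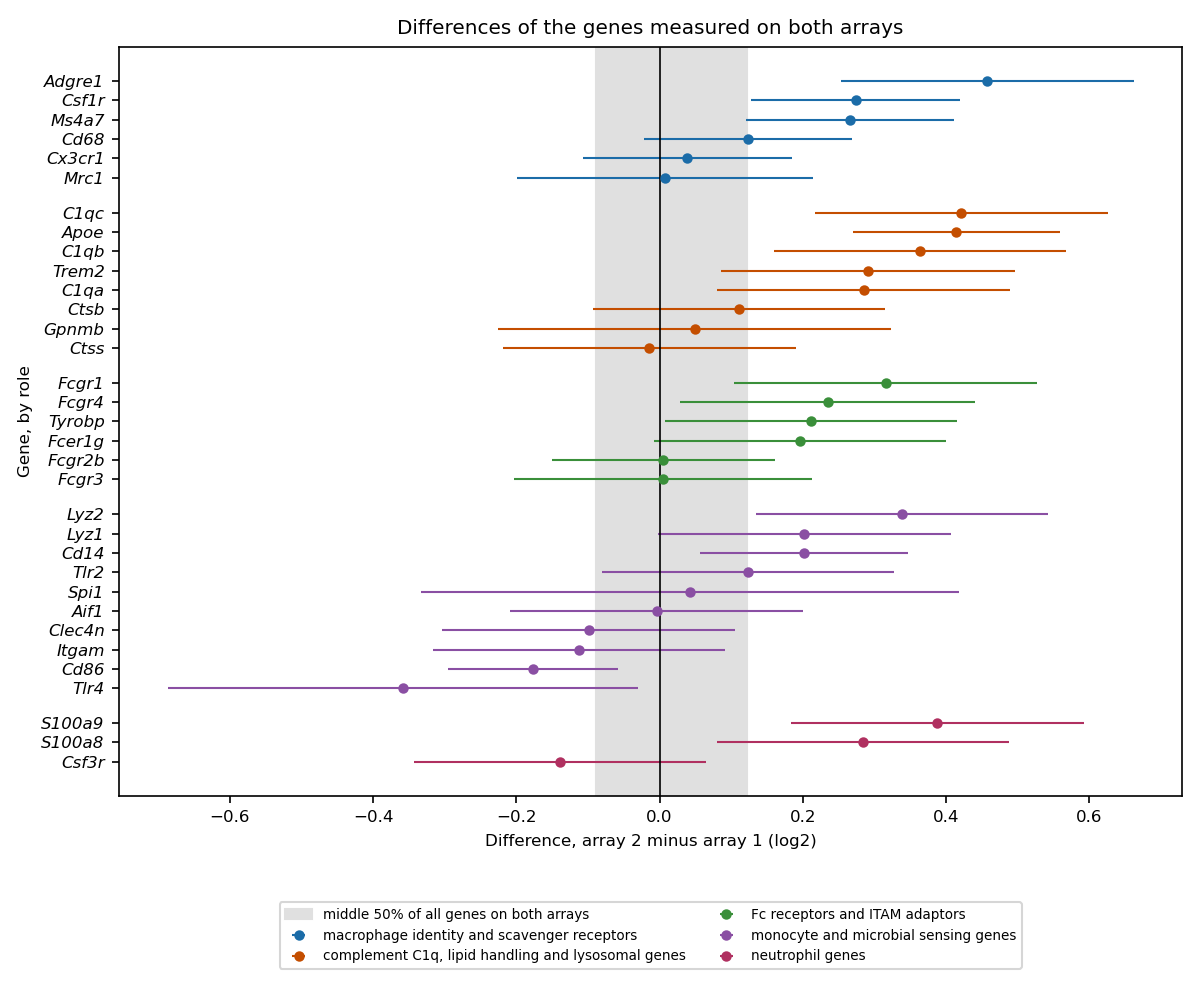
Difference between array 2 and array 1 (log2) for the 33 genes measured on both arrays, ordered within 5 role groups, with bars of ± 1 spot error. The grey band holds the middle 50% of all measured genes, from -0.09 to 0.12; Adgre1, C1qc, Apoe and S100a9 lie farthest to the right and Tlr4 farthest to the left, and the signs of Mrc1, Cx3cr1, Gpnmb, Fcgr2b, Fcgr3 and Spi1 turn under spike-in scaling.

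Monocyte and microbial sensing genes did not share a direction. Of 10 measured genes, 5 were higher and 5 lower in array 2 (50% higher, near the 53.8% of all genes), with a median of 0.02. By more than 1 spot error 2 were higher and 2 lower (20% each, against 17.1% and 11.4% of all genes). With spike-in scaling 4 were higher, as Spi1 turned, and with lowess centring 6, as Aif1 turned. Clec7a, the beta-glucan receptor Dectin-1, had no probe with a matching accession. The lysozyme genes and Cd14 were on the higher side. Lyz2, the lysozyme of mouse macrophages and neutrophils, reached 1.13 on array 2 and 0.80 on array 1, a difference of 0.34 ± 0.20. Its neighbour Lyz1 had 1.18 on array 2 and 0.98 on array 1 (0.20 ± 0.20), and because the 2 genes are close copies their probes may share signal. Cd14, the co-receptor for bacterial lipopolysaccharide, had 0.53 on array 2 and 0.33 on array 1, and both of its probes were higher, by 0.21 and 0.19. Tlr2, a receptor for bacterial lipopeptides, had 1.37 on array 2 and 1.25 on array 1.

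On the lower side, Tlr4, the lipopolysaccharide receptor, was dim, at -3.76 on array 2 and -3.40 on array 1. Its difference of -0.36 ± 0.33 was the lowest of the 33 genes and rests on 1 of 2 probes. The other probe was on neither array well above background, and averaging both would give -0.66. With normexp the difference was -0.056, within its error. Cd86, a co-stimulatory ligand of myeloid and B cells, had 0.02 on array 2 and 0.20 on array 1, and its 3 probes were all lower, by amounts that gave a mean of -0.18 ± 0.12. Tlr4 and Cd86 were the only measured genes of the list that were lower by more than 1 spot error. With normexp only Cd86 was, and with no filter on dim probes Itgam was too. Itgam, the integrin chain CD11b, had 2.74 on array 2 and 2.86 on array 1, a difference of -0.11 ± 0.20 from 1 of 2 probes. Its other probe was on neither array well above background, and averaging both would give -0.38. Clec4n, the fungal mannan receptor Dectin-2, had -0.01 on array 2 and 0.09 on array 1. Aif1, the macrophage protein Iba1, had 1.90 on array 2 and 1.91 on array 1. Spi1, the gene of PU.1, lay close to the detection floor, at -4.07 on array 2 and -4.11 on array 1, with an error of 0.38 on its difference of 0.04.

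The neutrophil genes were few and also split. S100a9 reached 3.06 on array 2 and 2.68 on array 1, a difference of 0.39 ± 0.20. S100a8, which encodes its partner in calprotectin, had 0.85 on array 2 and 0.56 on array 1, a difference of 0.28 ± 0.20. Csf3r, the receptor for granulocyte colony-stimulating factor, had 5.93 on array 2 and 6.07 on array 1, a difference of -0.14 ± 0.20. The alarmin genes, which activated monocytes also express, were thus brighter on array 2 by more than 1 spot error and the receptor gene was within it. Further neutrophil genes were split. Of a list of 17 other neutrophil and granule genes, 8 were measured on both arrays, 2 higher and 6 lower in array 2, with a median of -0.02. By more than 1 spot error 2 were higher and 1 was lower. Stfa2, Fpr1 and Fpr2 differed by -0.02 each and Il1b by -0.13 ± 0.15. Of the genes well above background on 1 array, Mmp8 had a lower bound of 1.35-fold higher in array 2. Mpo and Padi4 had bounds of 2.11-fold and 1.19-fold higher in array 1. These bounds leave out the spot error, and that of Mpo is the plain difference of its readings, -4.46 on array 2 and -3.38 on array 1. The 2 higher ones among the 8, Retnlg and the lactoferrin gene Ltf, were dim, at -3.42 and -3.45 on array 2 and -4.40 and -4.32 on array 1, with differences of 0.98 ± 0.37 and 0.87 ± 0.34. Mmp9, a gelatinase that other leukocytes also make, was lower at -0.35 ± 0.14, and the elastase gene Elane had a difference of -0.21 ± 0.23. Prtn3, Ctsg, Ngp, Camp and Cxcr2 were on neither array well above background.

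**Figure D3:**
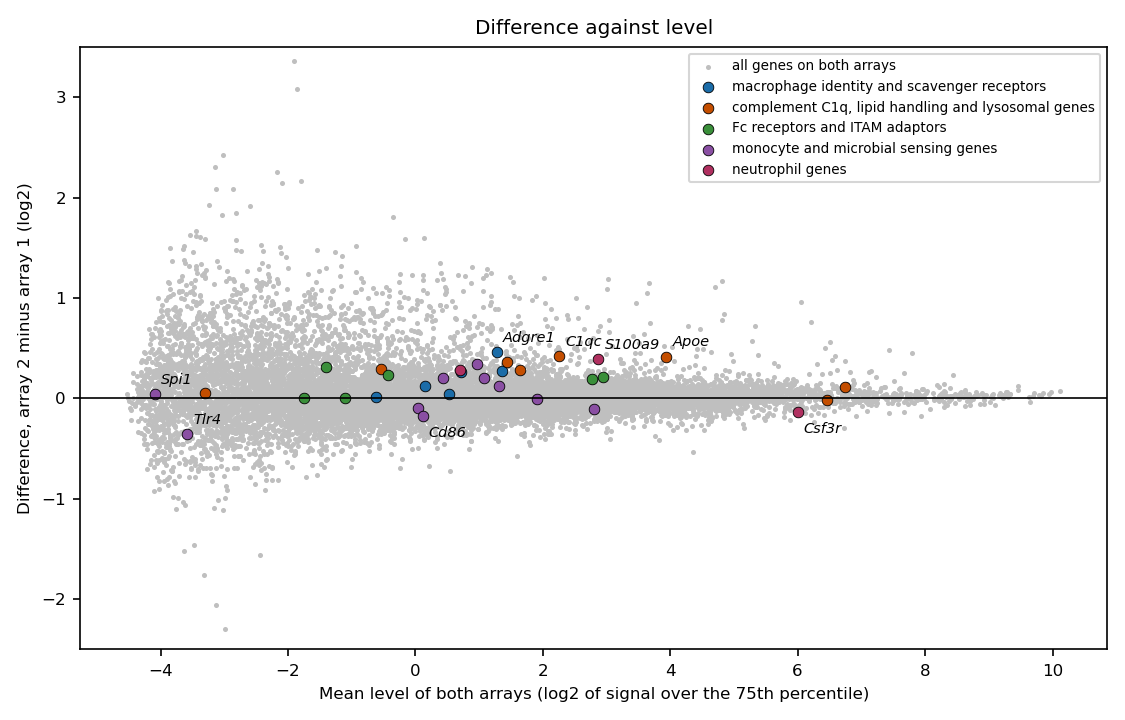
Difference between array 2 and array 1 (log2) against the mean level of both arrays for all 13743 measured genes (grey) and the 33 genes of the list (coloured by role). The spread of all genes narrows with level, and Adgre1, C1qb, C1qc, Apoe and S100a9 stand above the 95th percentile of genes of similar level.

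Since the spread of differences narrows with signal, the genes were also read against others of similar brightness, in 5 ranges of mean level. Of the 33 genes, 5 lay above the 95th percentile of their range and 0 below the 5th. Adgre1 and C1qb were the ones in the range of levels from 0 to 2, where the 5th and 95th percentiles of all genes were -0.21 and 0.35. C1qc, Apoe and S100a9 were those in the range from 2 to 4, where they were -0.17 and 0.22. The 3 genes above a level of 4, Ctsb, Ctss and Csf3r, lay between the percentiles, which were -0.14 and 0.18 there, Csf3r at the lower of them. Above the 75th percentile of the arrays, 18 of 24 genes of the list were higher in array 2, their median being 0.20, against 53.2% higher and a median of 0.01 over all 7793 such genes. Below it, 8 of 9 were higher, with a median of 0.04, against 54.6% and 0.03 over all 5950 genes there. With spike-in scaling 17 of the 24 were higher (31.9% of all genes there) and 3 of the 9 (45.7%), when Mrc1, Gpnmb, Fcgr2b, Fcgr3 and Spi1 turned.

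Other macrophage and monocyte genes, a list of 30 that does not overlap the 39, had 26 measured on both arrays. Of these, 19 were higher and 7 lower (73.1% higher, against 53.8% of all genes), with a median of 0.16. With spike-in scaling 15 were higher, where 37.9% of all genes were. By more than 1 spot error 13 were higher and 3 lower, where the background over all genes was 17.1% and 11.4%. The median was 0.05 with no filter on dim probes, over 30 genes. Among genes with every probe measured, those with the largest differences were Chil3, a secreted chitinase-like protein of macrophages (0.92 ± 0.21), Lgmn, the lysosomal protease legumain (0.75 ± 0.20), Cd63, a tetraspanin of late endosomes (0.72 ± 0.06), and Spp1, osteopontin (0.49 ± 0.20). F13a1, the gene of a coagulation factor XIII chain, with 1 of 2 probes measured, had a larger difference than Spp1, 0.59 ± 0.21, and was named after its value was seen. Kidney tubules also make legumain and osteopontin. Folr2, Timd4 and Cd5l, which mark resident macrophages of several organs, and Clec4a2 were on neither array well above background. Ccr2, the chemokine receptor of inflammatory monocytes that many T cells also carry, was lower, at 1.83 on array 2 and 2.23 on array 1 and a difference of -0.41 ± 0.20. Ccr2, Vcan, a matrix proteoglycan expressed by monocytes (-0.40 ± 0.39), and Ms4a6c, a membrane protein of the Ms4a family (-0.21 ± 0.20), were the 3 genes lower by more than 1 spot error, and were named after their values were seen.

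Among growth factors and chemoattractants of myeloid cells, 10 of 11 genes were measured, with 7 higher (5 with spike-in scaling) and 3 lower in array 2 and a median of 0.08. The ligands of Csf1r did not move alike. Il34 was at -0.75 on array 2 and -2.04 on array 1, a difference of 1.29 ± 0.21 from 1 of 2 probes, whereas Csf1 was at 0.79 on array 2 and 0.80 on array 1; both were named after their values were seen. Tubular epithelium is a known source of IL-34. Ccl2, the ligand of the receptor encoded by Ccr2, differed by 0.73 ± 0.21, the neutrophil attractant gene Cxcl1 by 0.64 ± 0.28 and Ccl7 by 0.47 ± 0.26, all at levels below the 75th percentile. Csf2, the gene of granulocyte-macrophage colony-stimulating factor, which T cells make, was lower at -0.43 ± 0.20.

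Other cell types that the sort should exclude differed by other amounts. The median of the proximal tubule genes was 1.15, and 15 of 16 were brighter on array 2, 11 of them at least 2-fold. Their summed signal was 198.9 times the 75th percentile on array 2 and 96.8 times on array 1, a ratio of 2.06. The summed signal of the 33 macrophage, monocyte and neutrophil genes was 350.9 on array 2 and 335.7 on array 1, a ratio of 1.05. It is carried by Ctsb, Ctss and Csf3r, and the 6 measured macrophage identity genes alone gave 10.8 on array 2 and 9.05 on array 1, a ratio of 1.19. The ratio was 1.07 for the complement and lysosomal group, 1.15 for the Fc receptor group, 1.02 for the monocyte group and 0.95 for the neutrophil genes. Summed signals of the dendritic, natural killer and B cell lists had ratios of 0.92, 1.04 and 0.82. T cell identity genes summed to 1308 on array 2 and 1293 on array 1, a ratio of 1.01, with a median difference of -0.01. The dendritic cell list had 5 of 9 genes higher (55.6%, near the 53.8% of all genes) and a median of 0.05. With spike-in scaling 4 were higher (37.9% of all genes). Its largest differences were those of Zbtb46 (-0.51 ± 0.21), Flt3 (0.37 ± 0.21), Cd209a (-0.30 ± 0.15) and Clec9a (0.29 ± 0.23). Clec9a was dim, at -3.48 on array 2 and -3.77 on array 1, and its 2 probes differed in sign. The part of tubular and other RNA in the differences of the macrophage genes was not tested.

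**Figure D4:**
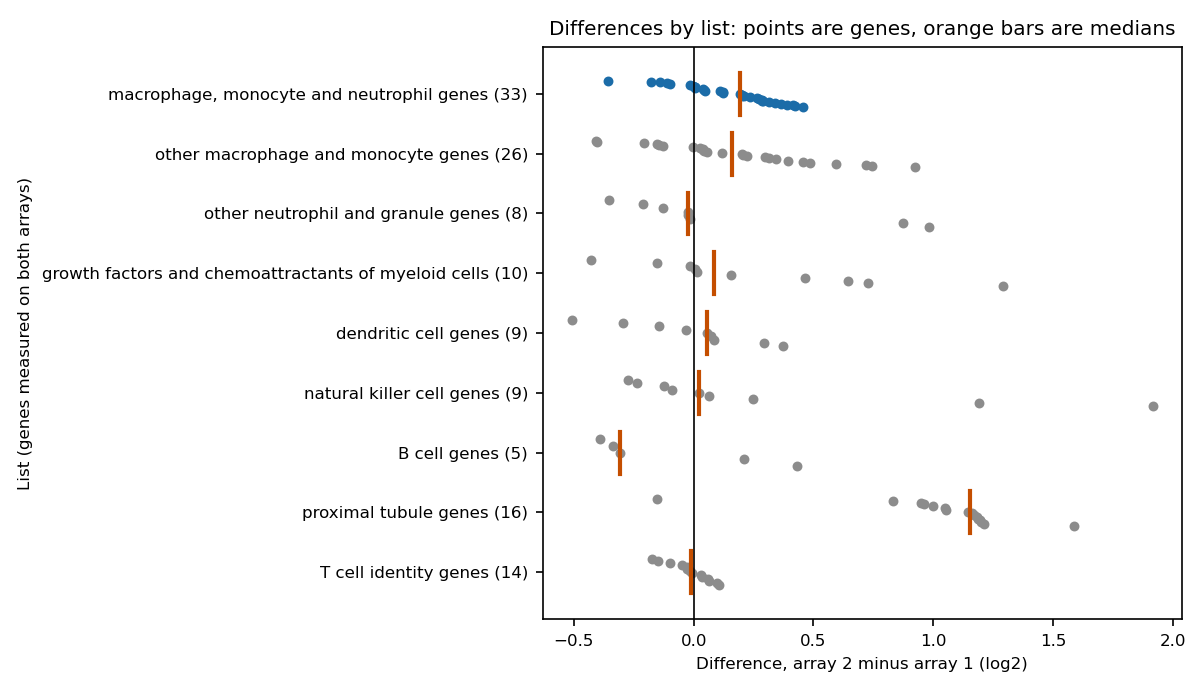
Difference between array 2 and array 1 (log2) for each gene measured on both arrays, by list, with the number of genes in parentheses and the median as an orange bar. The median of the macrophage, monocyte and neutrophil genes is 0.20, that of the proximal tubule genes 1.15 and that of the T cell identity genes -0.01; scaling by spike-ins would lower each point by 0.06.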

How the data were processed

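The RNA was labelled with Cy3, and the arrays were read with Agilent Feature Extraction 10.7.1.1, per the submitters' processing notes. The processed signal intensity deposited for each spot was background-subtracted and detrended within the array, per the file headers, and other deposited flags of 0 or 1 gave detection and outliers. The authors also deposited a value table, a linear ratio per probe with column medians of 0.069 and 0.070; its making is not given in sources used here. Among probes reaching a signal of 300, the SD of log2 (signal over value) was 0.000158 for array 2 against the column labelled as array 1 and 0.000162 for array 1 against that labelled as array 2, and 0.181 and 0.156 against the columns of their own labels, so the ratio is the signal over 1 constant per array; this settles scale and centring but leaves the direction unknown.

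Levels are log2 signals minus the 75th percentile over 56605 non-control probes. Outlier spots (56 on array 2, 75 on array 1) were left out. Probes were named through RefSeq accessions (assembly GRCm38.p6, names and promoters only, as the array headers name an older build): 32994 had 1 symbol and 23611 none. Each gene's difference averages those of its probes that were well above background on both, and a gene measured on 1 array only got a lower bound against the higher of the dim array's floor (its lowest signal well above background) and its own signal. No test was run, because each lot has 1 array, whose number limits the precision. The steps were tested on simulated data.

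The members and lists were chosen with earlier results of these data known. All 39 genes are accounted for, and the 4 largest differences are named in each further myeloid list, among genes with all probes measured. The ranges of level, the motifs, and the windows' length of 250 bases, which leaves out the 50 bases after the start, were chosen after seeing the data. Alternatives were normexp (limma 3.58.1, offset 50, on median signals), other scalings, quantile normalisation, lowess centring (span 0.3), other filters, probe rules, the value table, fold limits of 1.5 and 4, and another detection flag.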

Additional observations from a re-analysis of the deposited data

How the results depend on the processing

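No paired analysis was possible because each antibody lot has 1 array. Of 393 values of single genes of the list under an alternative, 367 moved by less than 1 spot error, and 24 of the other 26 came from the value table taken by its labels, which turns every sign. Much of this count was fixed in advance. Scaling by spike-ins shifts each gene by 0.06, less than its spot error, and the probe rules cannot change the 25 genes with 1 measured probe. The median of the 33 genes was 0.15 with normexp and 0.14 with spike-in scaling, and lay between 0.16 and 0.20 under the other alternatives that kept the direction of the arrays. The number higher in array 2 lay between 20 and 29 under these, the latter of 38 genes with no filter on dim probes. Over all genes the share higher lay between 37.9% and 61.9% under the same alternatives. With the brightest probe per gene the macrophage identity median was 0.27. The median of the other macrophage and monocyte genes was 0.10 with spike-in scaling and 0.052 with no filter. The B cell median was 0.0038 with normexp and 0.030 with a stricter filter, and the proximal tubule median was 1.01 with normexp. The cause of these shifts was not tested. Of the 33 genes, between 13 and 17 were higher by more than 1 spot error under the alternatives that kept the direction of the arrays. The share of all genes lay between 11.7% and 18.9% there. With normexp or a stricter filter 1 was lower (5.04% and 9.59% of all genes), and with no filter on dim probes 3 were (12.1%). With the value table by its labels 2 were higher and 15 lower. Genes of the list that were measured on both arrays and 2-fold apart numbered 0 under every alternative run, fold limits of 1.5 and 4 included. Mertk, whose lower bound was 1.53-fold, is not in the counts at these limits. Over all genes, those 2-fold higher in array 2 and in array 1 numbered 28 and 0 with normexp, 648 and 399 with no filter (more genes entered), 84 and 1 with a stricter filter (fewer entered), 708 and 112 at a limit of 1.5-fold and 9 and 2 at 4-fold, where the main counts were 184 and 12. With the value table by its labels, which names the arrays the other way round, they numbered 13 and 186, 7 of the 33 genes were higher, and the medians were -0.20 for the 33 genes, -0.20 for macrophage identity, -0.29 for complement and lysosomal, -0.21 for Fc receptor and -0.29 for neutrophil genes. They were -0.16 for other macrophage genes, -0.086 for growth factors, -0.056 for dendritic, 0.31 for B cell and -1.16 for proximal tubule genes. Another detection flag raised the genes measured on both arrays to 36. Low signal over background limits the values of the dim genes Spi1, Gpnmb, Tlr4 and Mertk.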
